A study of Mus musculus with 10 samples.

Results

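The 40 genes described here encode parts of the sarcomere and of the machinery that makes striated muscle contract. They were chosen by name, and all 40 were found among the 32830 genes of the deposited table. They fall into 10 thin filament genes, 7 thick filament and titin genes, 10 genes of the Z-disc and cytoskeleton, 8 genes of excitation-contraction coupling and calcium handling, and 5 genes of energy metabolism. All 40 reached an RPKM (reads scaled to gene length and to the total reads of the library) of at least 0.5 in at least 2 samples and so entered the tests.

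RNA was sequenced, from mRNA libraries, from tumours of mice with ovarian cancer, all of wild-type genotype per the labels. The 4 groups received PBS (2 samples), CDK4/6i, an inhibitor of the cell cycle kinases CDK4 and CDK6 (3 samples), a PD-1 antibody, which blocks a checkpoint receptor of T cells (2 samples), or both agents (3 samples). The labels give no dose, schedule, age or cancer cell line, and they do not say whether each sample came from a separate animal, so each p-value speaks only of variation among these 10 samples, part of which may be technical. The treatment text of the CDK4/6i samples gives only CDK4/6i, while their titles carry the word Abmea and their columns the word Abema. The treatment text of combination replicates 2 and 3 numbers the antibody differently from replicate 1. These combination samples were placed in their group by their titles.

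In striated muscle, thin filaments of actin, tropomyosin and troponin slide along thick filaments of myosin between the Z-discs that bound each sarcomere. Calcium released from the sarcoplasmic reticulum through the ryanodine receptor binds troponin C and frees actin for myosin, and the SERCA pump takes the calcium back. Fast and slow muscle fibres use different genes for many of these proteins, so the ratio of a fast to a slow gene describes the kind of fibre a transcript pool comes from. Most of these genes are known for their restriction to striated muscle, while some, such as Tpm1, are also used by other cells.

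The libraries held between 25132208 and 36260856 reads. The 40 genes took 1.49% and 0.781% of the reads with PBS, 8.60%, 7.24% and 0.0856% with CDK4/6i, 0.0791% and 0.902% with the antibody, and 7.99%, 0.270% and 0.789% with the combination, where replicates are listed in order here and throughout. The 95% Clopper-Pearson interval of the highest share was 8.59% to 8.61% and that of the lowest 0.0781% to 0.0801%, and such intervals cover counting error only, since reads without molecular identifiers are not independent molecules. CDK4/6i replicates 1 and 2 and combination replicate 1 were thus high and CDK4/6i replicate 3 and antibody replicate 1 low, so that the CDK4/6i group held both the highest share and one of the lowest. In bulk tissue, fewer muscle fibres and less RNA per fibre cannot be told apart.

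The order of the libraries was nearly the same from gene to gene. For 37 of the 40 genes the 3 highest libraries were CDK4/6i replicates 1 and 2 and combination replicate 1, the exceptions being Myl3, Casq2 and Mb. For 39 genes the 2 lowest were CDK4/6i replicate 3 and antibody replicate 1, the exception being Myl2. In CDK4/6i replicate 3 only 9 genes reached 1 RPKM and in antibody replicate 1 only 12 did, against 34 to 40 in each of the other libraries. Across the 10 libraries, 36 genes had a Pearson r of at least 0.9 with the mean of the other 39 on the log2(RPKM + 0.5) scale. The highest was 0.998 for Tpm2 (beta-tropomyosin) and the lowest were 0.854 for Mb, 0.873 for Casq2, 0.883 for Myl2 and 0.887 for Myl3. These r values all come from the same 10 libraries, which differ strongly in their share of muscle reads.

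**Figure D1:**
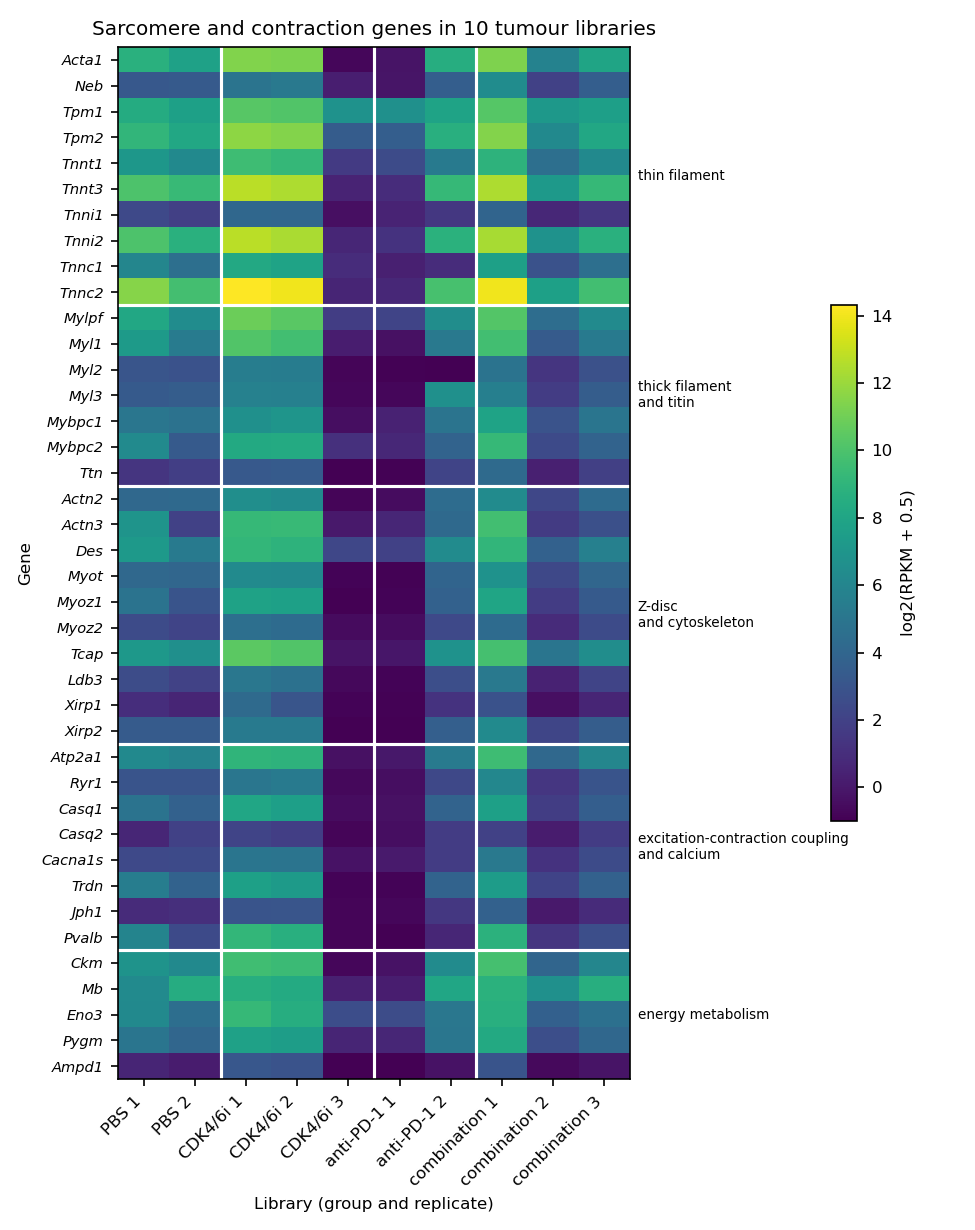
Level of each of the 40 genes as log2(RPKM + 0.5) (colour) in each of the 10 libraries (columns), with genes in rows by role and white lines between treatment groups and between roles. CDK4/6i replicates 1 and 2 and combination replicate 1 are bright in nearly every row, CDK4/6i replicate 3 and antibody replicate 1 are dark, and the bright and dark columns cross the treatment groups.

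Promoter windows are shown because the genes varied together and because their shared sequence elements are known from muscle biology. RefSeq windows on GRCm38.p6 were matched for 29 of the 40 genes and gave 35 windows of 250 bases before the transcript start. For 27 of the 35, bases 11 to 40 after that start were found in a GENCODE transcript of the gene. The windows of Mylpf and Myl3 are among these and that of Acta1 is not. By the deposited coordinates the Acta1 gene starts at 123894751, downstream of the RefSeq start. The deposited Mylpf and Myl3 genes start at 127208890 and 110741861, upstream of their windows, which thus lie within the deposited genes. Searched on both strands, the E-box CANNTG, the core of the site bound by MyoD family factors, was in 31 of the 35 windows (88.6%), against 66.2% of all 32851 windows. The narrower form CAGCTG, which is itself counted within CANNTG, was in 17 windows (48.6%), against 13.0% of all. A MEF2 site was in 5 (14.3%, against 2.92%), a CArG box, the element bound by serum response factor, in 4 (11.4%, against 1.47%), and TATAAA in 4 (11.4%, against 12.4%). Shown 5′ to 3′ are the windows of Acta1, skeletal muscle actin (chr8:123894776-123895025, minus strand), of the fast light chain gene Mylpf (chr7:127211358-127211607, plus strand) and of the slow light chain gene Myl3 (chr9:110763428-110763677, plus strand). Capitals mark the E-box form CAGCTG, the TATA element and the CArG box, on either strand. Acta1 holds one of each, Mylpf a CAGCTG and Myl3 a CArG box. Windows of the same gene can overlap and count a site again. By gene, CANNTG was in 27 of the 29, CAGCTG in 15, a MEF2 site in 5, a CArG box in 3 and TATAAA in 4. A match is a description of letters, not a bound site.
Acta1: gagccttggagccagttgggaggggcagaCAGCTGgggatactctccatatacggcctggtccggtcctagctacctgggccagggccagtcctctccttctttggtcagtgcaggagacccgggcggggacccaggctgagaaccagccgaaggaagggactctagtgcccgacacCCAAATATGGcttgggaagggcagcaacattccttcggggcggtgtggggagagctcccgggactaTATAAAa
Mylpf: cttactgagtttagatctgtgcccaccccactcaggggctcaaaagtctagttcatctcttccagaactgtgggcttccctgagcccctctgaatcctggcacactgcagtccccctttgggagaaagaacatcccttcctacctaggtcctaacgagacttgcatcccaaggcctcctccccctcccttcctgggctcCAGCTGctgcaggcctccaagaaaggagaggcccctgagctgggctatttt
Myl3: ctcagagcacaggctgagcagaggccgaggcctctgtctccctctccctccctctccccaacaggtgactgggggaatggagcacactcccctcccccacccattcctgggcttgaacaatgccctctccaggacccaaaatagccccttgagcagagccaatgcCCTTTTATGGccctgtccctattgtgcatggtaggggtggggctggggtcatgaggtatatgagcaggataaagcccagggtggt

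The thin filament held the most abundant transcripts. Its 10 genes made up 72.8% to 86.6% of the summed RPKM of all 40 in each library. The gene with the highest level was Tnnc2, fast troponin C, the calcium sensor of fast fibres, at 2988 and 838 RPKM with PBS, 20362, 16316 and 0.999 with CDK4/6i, 1.15 and 938 with the antibody, and 16091, 211 and 805 with the combination. Tnnc2 shares exonic bases with Ube2c on the other strand, and the reads of the pair cannot be told apart where Tnnc2 is high. Acta1, the actin of skeletal thin filaments, was at 428 and 219.8 RPKM with PBS, 2740.1, 2493 and 0.0905 with CDK4/6i, 0.372 and 379 with the antibody, and 2656, 54.4 and 243 with the combination. The highest library exceeded the lowest 20385-fold for Tnnc2 and 30283-fold for Acta1, and for both genes the 3 CDK4/6i libraries spanned the values of every other group.

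Troponin T ties troponin to tropomyosin and troponin I holds actin in the blocked state. The fast genes Tnnt3 and Tnni2 ran from 0.944 to 6747 RPKM and from 1.07 to 6915 RPKM across the libraries. The slow genes Tnnt1 and Tnni1 ran from 2.59 to 744 RPKM and from 0.270 to 16.7 RPKM. Slow and cardiac troponin C, Tnnc1, was at 64.9 and 23.4 RPKM with PBS, 305, 233 and 1.40 with CDK4/6i, 0.792 and 1.46 with the antibody, and 206, 6.86 and 23.8 with the combination. Both antibody libraries were low in Tnnc1, at or under 1.46 RPKM, although antibody replicate 2 held Tnnc2 at 938 RPKM. The tropomyosin gene Tpm2 ranged from 10.7 to 3351 RPKM, and Neb, the giant ruler protein nebulin, from 0.408 to 85.7 RPKM.

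Tpm1, alpha-tropomyosin, which non-muscle cells also express, had the smallest ratio of the highest to the lowest library. It was at 342 and 207 RPKM with PBS, 1295, 1146 and 114 with CDK4/6i, 102 and 240.5 with the antibody, and 1214, 142 and 197 with the combination. Its highest library exceeded its lowest 12.7-fold, with Casq2 next at 50.8-fold. The SD within groups was lowest for Casq2 and next for Tpm1, at 1.31 and 1.55 log2 units. Tpm1 made up 74.4% of the summed RPKM of the 40 genes in CDK4/6i replicate 3 and 69.4% in antibody replicate 1, and 2.45% to 13.3% elsewhere.

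Among the thick filament genes, Mylpf had the highest level in every library but antibody replicate 2, where Myl3 exceeded it. Mylpf, the fast regulatory light chain, was at 285 and 85.9 RPKM with PBS, 1885, 1332 and 3.01 with CDK4/6i, 3.85 and 91.4 with the antibody, and 1196, 21.7 and 79.0 with the combination. The fast essential light chain Myl1 had the same order of libraries at its top, with 165, 1126, 829 and 807 RPKM in PBS replicate 1, CDK4/6i replicates 1 and 2 and combination replicate 1. Mybpc1 and Mybpc2, the slow and fast myosin-binding protein C, ranged from 0.253 to 235 and from 1.11 to 609.7 RPKM. Titin, Ttn, the molecular spring of the sarcomere, ranged from 0.0158 to 19.3 RPKM over an exon length of 116825 bases.

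The slow light chains Myl2 and Myl3 parted from each other in 1 library. Myl2, the slow regulatory light chain, was at 7.57 and 6.71 RPKM with PBS, 45.3, 42.3 and 0.0713 with CDK4/6i, 0.0325 and 0 with the antibody, and 27.5, 2.12 and 6.45 with the combination. Myl3, the slow essential light chain, was at 9.48 and 11.1 RPKM with PBS, 53.0, 49.5 and 0.102 with CDK4/6i, 0.0931 and 103 with the antibody, and 47.7, 2.74 and 10.98 with the combination. Antibody replicate 2 thus had the highest Myl3 of all libraries, with 7240 reads, and no read of Myl2. No other member had its maximum in that library.

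The Z-disc anchors thin filaments and passes force to the cytoskeleton. Des, desmin, the intermediate filament that links Z-discs, was at 153 and 39.4 RPKM with PBS, 574, 484 and 4.31 with CDK4/6i, 3.36 and 81.8 with the antibody, and 538, 13.2 and 51.5 with the combination. Tcap, telethonin, which caps titin, ranged from 0.367 to 1389 RPKM, and Myot, myotilin, from 0.0287 to 112 RPKM. Ldb3, Xirp1 and Xirp2 reached 35.7, 19.3 and 81.0 RPKM at most. Xirp2 had no reads in CDK4/6i replicate 3, so that its highest library exceeded its lowest by at least 9313-fold at a floor of 3 reads.

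The fast alpha-actinin Actn3 behaved unlike its partner Actn2, which is found in all striated fibres. Actn3 was at 119.6 and 3.33 RPKM with PBS, 619, 630.4 and 0.552 with CDK4/6i, 1.09 and 18.5 with the antibody, and 807, 2.66 and 6.04 with the combination. Actn2 was at 17.4 and 18.2 RPKM with PBS, 92.6, 80.5 and 0.0752 with CDK4/6i, 0.198 and 21.0 with the antibody, and 83.3, 4.33 and 19.8 with the combination. The PBS libraries were close to each other for Actn2, while PBS replicate 1 was 35.9 times PBS replicate 2 for Actn3. The myozenin genes Myoz1 (fast) and Myoz2 (slow), which tether calcineurin to the Z-disc, peaked at 258 and 23.7 RPKM.

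Excitation-contraction coupling runs from the voltage sensor Cacna1s to the ryanodine receptor Ryr1, with Jph1 holding the membranes together and Trdn and the calsequestrins on the luminal side. Cacna1s ranged from 0.329 to 36.4 RPKM, Ryr1 from 0.134 to 67.0, Jph1 from 0.0834 to 13.1 and Trdn from 0.0492 to 208 RPKM. Atp2a1, the SERCA1 pump of fast fibres, was at 76.5 and 57.6 RPKM with PBS, 521, 485 and 0.310 with CDK4/6i, 0.502 and 38.3 with the antibody, and 763, 17.3 and 66.1 with the combination. Pvalb, parvalbumin, a calcium buffer of the fastest fibres, was at 59.9 and 4.93 RPKM with PBS, 568, 408 and 0.0668 with CDK4/6i, 0 and 1.07 with the antibody, and 456, 2.06 and 5.96 with the combination. PBS replicate 1 held 12.1 times as much Pvalb as PBS replicate 2, a gap exceeded between them only by Actn3. Casq2, the slow and cardiac calsequestrin, stayed at or under 3.87 RPKM in every library, while the fast form Casq1 reached 266 RPKM.

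Among the metabolic genes, Ckm, muscle creatine kinase, which buffers ATP, was at 117 and 75.0 RPKM with PBS, 788, 685 and 0.0954 with CDK4/6i, 0.338 and 84.8 with the antibody, and 898, 15.2 and 65.8 with the combination. Mb, myoglobin, the oxygen store of oxidative fibres, was at 79.8 and 350.1 RPKM with PBS, 394, 329.8 and 0.777 with CDK4/6i, 0.659 and 272 with the antibody, and 438, 101 and 385 with the combination. Mb was therefore nearly as high in PBS replicate 2 and combination replicate 3 as in the libraries with the most muscle reads. Eno3 (muscle enolase), Pygm (muscle glycogen phosphorylase) and Ampd1 (muscle AMP deaminase) peaked in CDK4/6i replicate 1, combination replicate 1 and CDK4/6i replicate 1 at 613, 316 and 8.4 RPKM.

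**Figure D2:**
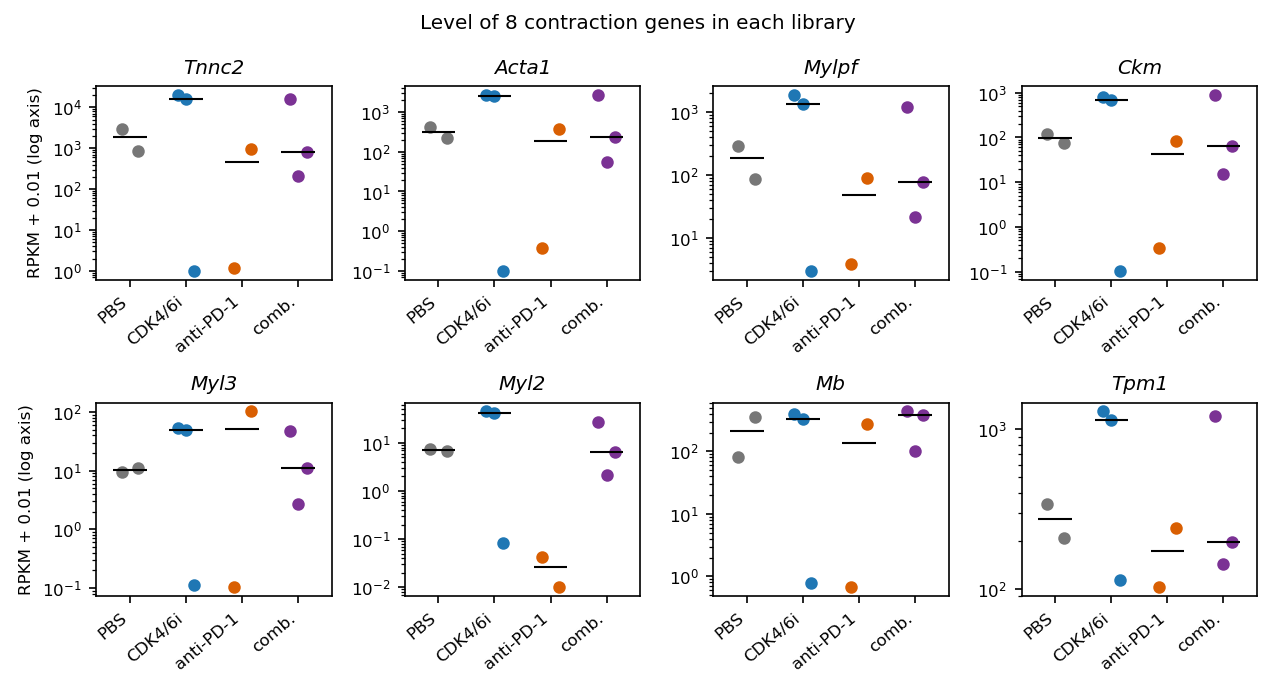
RPKM of 8 of the genes (log axis, 0.01 added so that a value of 0 can be drawn) by treatment group, with 1 point per library and a horizontal line at each group's median. In each panel the groups overlap except for Myl2, whose antibody libraries at 0.0325 and 0 RPKM lie below the PBS libraries at 7.57 and 6.71 RPKM and below every combination library.

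The libraries with muscle reads differed in which muscle genes they held, and not by a common factor. Between PBS replicates 1 and 2 the ratio of the 40 genes had a median of 1.58, and it ran from 0.228 for Mb and 0.313 for Casq2 to 12.1 for Pvalb and 35.9 for Actn3. Combination replicates 1 and 3 differed by a median of 9.43, from 1.14 for Mb to 76.5 for Pvalb and 133.6 for Actn3. Between CDK4/6i replicates 1 and 2 the ratio stayed between 0.802 and 2.48, with a median of 1.17. Combination replicate 3 and PBS replicate 2, which received different treatments, had a median ratio of 1.0 and a range of 0.629 to 1.82.

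The same split showed in the profile over the 40 genes. On the log2(RPKM + 0.5) scale, the profiles of PBS replicate 1, CDK4/6i replicates 1 and 2 and combination replicate 1 had a Pearson r of 0.978 to 0.996 with one another across the 40 genes. Those of PBS replicate 2 and combination replicates 2 and 3 had 0.986 to 0.996. These r values are across genes, which are not independent, and describe likeness only. Mb made up 9.49%, 9.45% and 10.5% of the summed RPKM of the 40 genes in PBS replicate 2 and combination replicates 2 and 3, and 0.970%, 0.747%, 0.769% and 1.0% in PBS replicate 1, CDK4/6i replicates 1 and 2 and combination replicate 1. In antibody replicate 2, Mb made up 6.59% and Myl3 2.51%, against 0.0634% to 0.302% for Myl3 elsewhere.

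For 9 pairs of a fast and a slow gene, the fast share of the pair's RPKM was computed wherever the pair held at least 20 reads, which gave 88 values over the 10 libraries. The fast gene held over 50% in 75 of them. All 9 pairs were mostly fast in PBS replicate 1, CDK4/6i replicates 1 and 2 and combination replicate 1, with a median fast share of 94.4% to 95.5% in these libraries. In PBS replicate 2 and combination replicates 2 and 3, 7 of 9 pairs were mostly fast, with medians of 79.1%, 82.7% and 80.4%.

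The pairs below 50% in those 3 libraries were alpha-actinin and myosin-binding protein C. Since Actn2 is found in all striated fibres, a share under 50% there need not mean slow fibres. The slow heavy chain gene Myh7 made up 7.44%, 6.77% and 7.53% of the summed RPKM of 8 skeletal myosin heavy chain genes in them. It made up 2.85% to 4.61% in the libraries where all 9 pairs were mostly fast. Actn3 made up 15.5% of the alpha-actinin pair in PBS replicate 2 (95% Clopper-Pearson interval 14.0% to 17.0%), 38.1% in combination replicate 2 and 23.4% in combination replicate 3, against 87.0% to 90.6% in the libraries where all 9 pairs were mostly fast. Mybpc2 made up 26.3%, 41.2% and 31.9% of its pair in those 3 libraries, against 71.5% to 75.5%. The troponins hardly differed between these libraries. The fast share of troponin I was 99.0% to 99.8% and that of troponin C 96.8% to 98.7% in all 7 of them.

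Antibody replicate 2 had a pattern of its own. Its essential light chain was 25.7% fast (24.8% to 26.5%), which was the lowest of the 10 libraries for that pair, and its alpha-actinin and myosin-binding protein C pairs were 46.7% and 32.6% fast. Its regulatory light chain was 100% fast, with 0 reads of Myl2 beside 3324 of Mylpf, and its troponin C 99.8% fast. In CDK4/6i replicate 3 and antibody replicate 1 the pairs held few reads. In CDK4/6i replicate 3, 5 of the 7 pairs with at least 20 reads were mostly fast, with a median of 86.5%. In antibody replicate 1, 7 of 9 were, with a median of 59.2%. The troponin T pair was among the others, at 26.7% (20.3% to 33.9%) and 21.6% (17.4% to 26.3%) fast. No treatment comparison was tested on these shares.

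**Figure D3:**
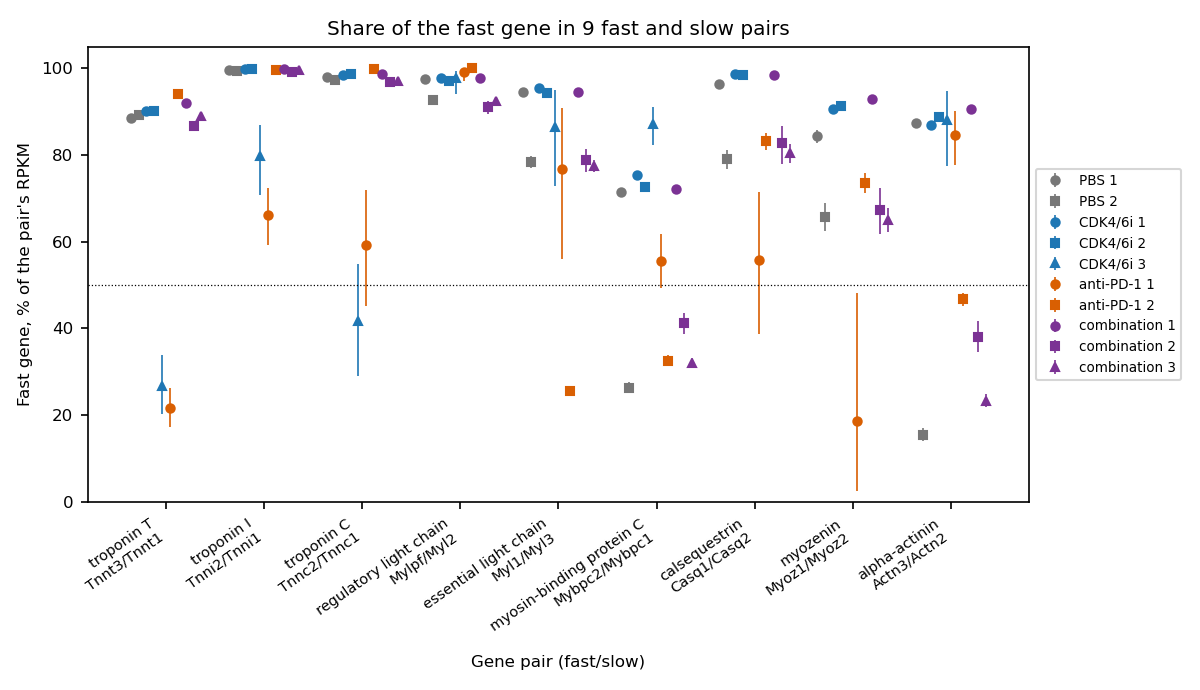
Fast gene as a percentage of the RPKM of each fast and slow pair (y axis) for 9 pairs (x axis), 1 point per library with at least 20 reads in the pair and bars for the 95% Clopper-Pearson interval of counting error. The dotted line marks 50%. The 4 libraries with all pairs above it are PBS replicate 1, CDK4/6i replicates 1 and 2 and combination replicate 1, and the essential light chain of antibody replicate 2 stands at 25.7%.

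Myosin heavy chain genes, the motors of the thick filament and the usual marker of fibre type, are not among the 40 but showed the same split. Myh4, the motor of type IIb fibres, was at 1102 and 5.45 RPKM with PBS, 7432, 6749 and 0.554 with CDK4/6i, 0.295 and 8.34 with the antibody, and 8066, 4.69 and 13.7 with the combination. Myh1, of type IIx fibres, was at 181 and 348 RPKM with PBS, 857, 1188 and 0.175 with CDK4/6i, 0.370 and 333 with the antibody, and 1473, 107 and 404 with the combination. Myh4 made up 76.9%, 80.5%, 76.8% and 79.4% of the summed RPKM of 8 skeletal myosin heavy chain genes in PBS replicate 1, CDK4/6i replicates 1 and 2 and combination replicate 1. It made up 0.926%, 2.67% and 2.12% in PBS replicate 2 and combination replicates 2 and 3, where Myh1 held 59.2%, 60.5% and 62.4% and Myh2, of type IIa fibres, 31.5%, 28.2% and 27.2%.

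Antibody replicate 2 again stood apart. Its leading heavy chain was Myh8, the perinatal isoform, with 399 RPKM or 51.4%, and Myh8 was at or under 0.379% in the other 7 libraries that held over 100 RPKM of these heavy chains. Myh7, the slow and beta-cardiac heavy chain, was at 0.456 RPKM in antibody replicate 2, against 11.9 to 383 RPKM in those 7 libraries. None of the 8 heavy chains passed the test in any treatment contrast.

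**Figure D4:**
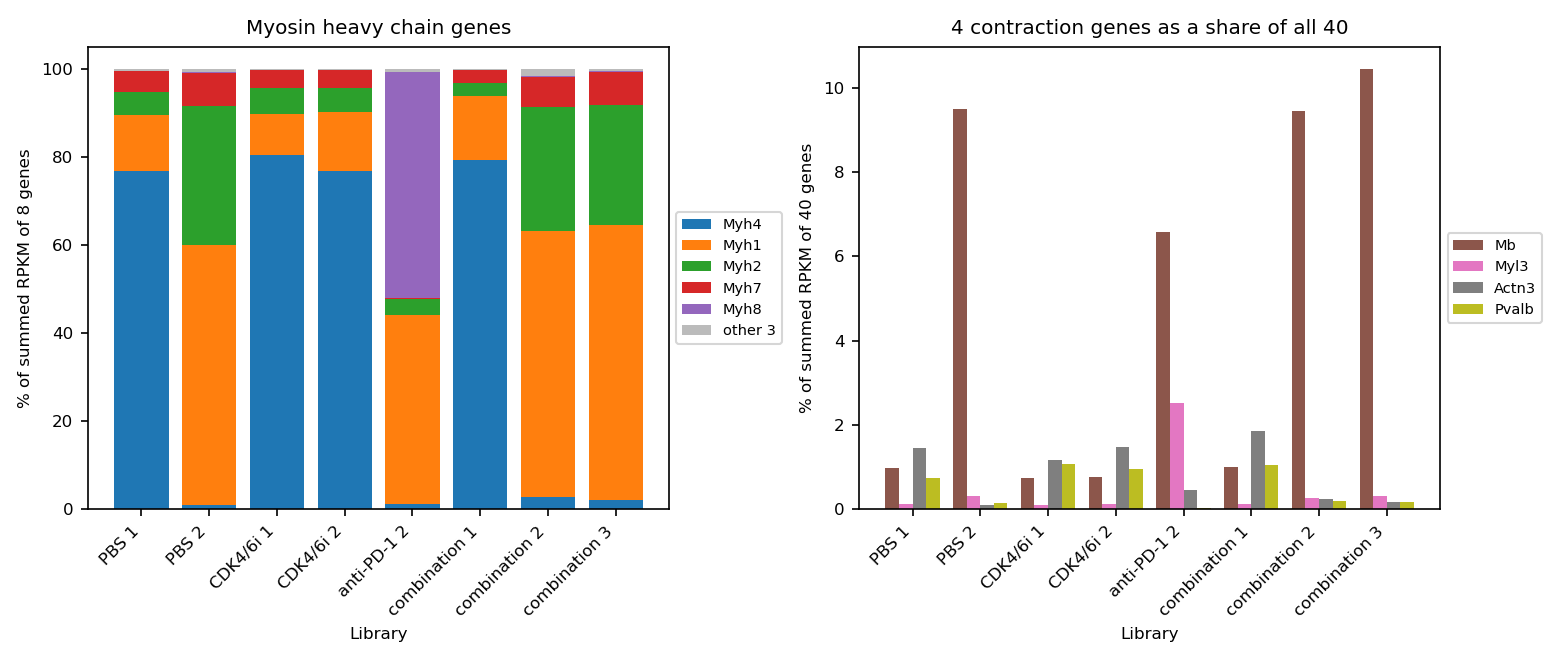
Left, share of each myosin heavy chain gene in the summed RPKM of 8 such genes (y axis, %). Right, share of Mb, Myl3, Actn3 and Pvalb in the summed RPKM of the 40 genes (y axis, %). The 8 libraries with most muscle reads are on the x axis. Myh4 leads where Actn3 and Pvalb are high, Myh1 leads where Mb reaches 9.45% or more, and Myh8 leads in antibody replicate 2.

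No member was called in any treatment comparison. The test was limma on log2(RPKM + 0.5) with Benjamini-Hochberg adjustment over all 19368 genes tested, at 0.05, and it called 0 of the 40 in each of 8 contrasts. At an unadjusted p under 0.05 it also called 0 of the 40 in each contrast, and limma's voom on recovered reads called 0 after adjustment. The background was 0% of all genes called in every contrast. The spread within groups was wide: the SD of a member's level around its group mean had a median of 3.08 log2 units over the 40 genes, from 1.31 to 5.58. The share of a member's variance that lay between the 4 groups had a median of 16.3%. With so few libraries, some share lies between groups without any treatment effect. Fold changes are on the log2(RPKM + 0.5) scale and understate the change of low genes. The median of all genes lay at -0.20 for CDK4/6i against PBS and between -0.17 and 0.33 in the other contrasts, and median-ratio scaling brought it to between -0.01 and 0.02.

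CDK4/6i was compared with PBS for the effect of the inhibitor alone. Of the 40 genes, 27 had a positive and 13 a negative log2 fold change, with a median of 0.31. The sign of the median turned with voom (-0.19) and without PBS replicate 2 (-0.18), CDK4/6i replicate 1 (-0.75) or CDK4/6i replicate 2 (-0.70). Without both of these and combination replicate 1, the 3 libraries richest in muscle transcripts, 0 of 40 were positive and the median was -4.38. These 3 were picked by their muscle reads and left CDK4/6i replicate 3 alone in its group. That direction follows from the choice and is no test of the inhibitor. The median was 2.75 without CDK4/6i replicate 3. The lowest p belonged to Ampd1, whose levels were 0.987 and 0.618 RPKM with PBS, 8.4, 6.90 and 0 with CDK4/6i, 0 and 0.338 with the antibody, and 7.25, 0.151 and 0.389 with the combination. Its log2 fold change was 1.31 ± 1.38 (SE), with an adjusted p of 0.853. Of all genes, 5.35% had an unadjusted p under 0.05. No member's groups were apart, against 1.71% of all genes with every CDK4/6i library higher and 17.3% with every one lower.

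The antibody was compared with PBS in 2 libraries each. All 40 genes had a negative log2 fold change, with a median of -2.35 and a range of -5.33 to -0.46. The median was -0.16 without antibody replicate 1 and -4.34 without antibody replicate 2. For 12 of the 40 genes (30.0%) both antibody libraries lay below both PBS libraries, against 34.8% of all genes. These were Tnnc1, Pvalb, Myot, Myl1, Tnni1, Cacna1s, Ampd1, Myl2, Tnnt1, Ryr1, Atp2a1 and Tnnt3. No member had both antibody libraries above both PBS libraries, against 8.78% of all genes. At an unadjusted p under 0.05 stood 8.65% of all genes and 0 of the 40.

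Myl2 had the lowest p of the 40 in that contrast. Mean Myl2 levels were 7.14 ± 0.606 with PBS (SD, n = 2), 29.2 ± 25.3 with CDK4/6i (n = 3), 0.0163 ± 0.0230 with the antibody (n = 2) and 12.0 ± 13.6 with the combination (n = 3) RPKM. The log2 fold change against PBS was -3.89 ± 2.00 (SE), with an adjusted p of 0.616. With only the PBS and antibody libraries in the fit, Myl2 passed at an adjusted p of 0.00608, as 1 of 65 genes called, and its adjusted p over the other alternatives ran from 0.0627 to 1. Beside this, the 10 exocrine pancreas markers summed to 56610.0 and 22583 RPKM in the antibody libraries and to 8.56 and 9.91 RPKM in the PBS libraries, and their part in the result was not tested.

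The combination was compared with PBS, with the antibody alone and with the inhibitor alone. Against PBS, 29 of the 40 genes were positive, with a median of 0.21 that turned to -1.09 without combination replicate 1 and to -0.10 without PBS replicate 2. Jph1 had the lowest p, with 0.59 ± 1.42 (SE) and an adjusted p of 1. No member's groups were apart, where 4.45% of all genes were higher and 11.5% lower in every combination library, and 3.54% of all genes had an unadjusted p under 0.05.

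Against the antibody alone all 40 genes were positive, with a median of 2.57 that ran from 0.43 without antibody replicate 1 to 4.59 without antibody replicate 2. In 3 of the 40 genes (7.50%), Tnnc1, Pvalb and Myl2, every combination library lay above both antibody libraries, against 21.5% of all genes. No member had every combination library below both antibody libraries, against 5.10% of all genes. Myl2 again had the lowest p, with 3.95 ± 1.83 (SE) and an adjusted p of 0.893, where 5.55% of all genes had an unadjusted p under 0.05. This contrast shares its antibody libraries with the contrast of the antibody against PBS.

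Against CDK4/6i alone 17 of the 40 genes were positive, with a median of -0.23. The sign turned with voom (0.41), without CDK4/6i replicate 1 (1.0), CDK4/6i replicate 2 (0.94), combination replicate 2 (0.81) or combination replicate 3 (0.02). Without CDK4/6i replicates 1 and 2 and combination replicate 1 together all 40 were positive, with a median of 3.03, and the median was -2.64 without CDK4/6i replicate 3. The removal of those 3 libraries was chosen by their muscle reads and left CDK4/6i replicate 3 alone in its group. Its direction follows from that choice. Mb had the lowest p, with mean levels of 215 ± 191 with PBS (SD, n = 2), 242 ± 211 with CDK4/6i (n = 3), 136 ± 192 with the antibody (n = 2) and 308 ± 181 with the combination (n = 3) RPKM. Its log2 fold change was 2.23 ± 2.58 (SE), with an adjusted p of 0.805. No member's groups were apart, against 7.84% of all genes higher and 3.01% lower in every combination library, and 8.03% of all genes had an unadjusted p under 0.05.

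The averaged effects and the interaction ask whether one agent acts across both levels of the other. The inhibitor effect averaged over libraries without and with the antibody was positive for all 40 genes, with a median of 1.40 that was 0.37 without antibody replicate 1. Without CDK4/6i replicates 1 and 2 and combination replicate 1, the 3 libraries richest in muscle transcripts, 0 of 40 were positive and the median was -1.71. Because these 3 were picked by their muscle reads, values without them are no test of a direction, here and below. The antibody effect averaged over libraries without and with the inhibitor was negative for all 40, with a median of -1.35 that became -0.09 without antibody replicate 1 and turned to 0.44, with 34 of 40 positive, without those 3 libraries. The interaction was positive for 38 genes, with a median of 2.26 that turned to -0.09 without CDK4/6i replicate 3 and was 5.96 without those 3 libraries. The lowest adjusted p values were 0.966 for Myl2, 0.596 for Tnnc1 and 0.782 for Myl2. At an unadjusted p under 0.05 stood 4.91%, 10.2% and 5.62% of all genes and 0 of the 40.

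Other gene lists placed the transcripts. Of 39 further sarcomere and triad genes found in the table, 0 passed the test in any contrast. They followed the same libraries, with summed levels of 643 and 563 RPKM with PBS, 3456, 2482 and 34.4 with CDK4/6i, 59.1 and 368 with the antibody, and 3002, 196 and 608 with the combination. Pgam2, the muscle phosphoglycerate mutase, led that list at 81.3 and 37.6 RPKM with PBS, 932, 436 and 0.662 with CDK4/6i, 0.340 and 30.1 with the antibody, and 393, 10.9 and 38.0 with the combination. Of 13 cardiac markers 8 entered the test and 0 passed, with 0 to 2 at an unadjusted p under 0.05 depending on the contrast. The summed level of the 13 stayed between 5.99 and 30.2 RPKM, with the atrial hormone gene Nppa and the cardiac ryanodine receptor Ryr2 at or under 0.223 RPKM in every library. Myh6, the alpha-cardiac myosin heavy chain, reached 5.03 RPKM at most.

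Markers of other tissues were summed in the same way. The 12 smooth muscle markers were highest in combination replicate 1 and antibody replicate 2, at 463 and 316 RPKM. They were lowest in antibody replicate 1 and CDK4/6i replicate 3, at 69.7 and 81.2 RPKM, which were also the lowest libraries for 39 of the 40 contraction genes, and at most 1 of the 12 had no reads in any library. The 10 adipocyte markers summed to 1871 RPKM in PBS replicate 1 and to 57.2 to 251 RPKM elsewhere. The 10 exocrine pancreas markers summed to 917, 56610.0, 22583, 2263 and 8958 RPKM in CDK4/6i replicate 3, antibody replicates 1 and 2 and combination replicates 2 and 3, and to at most 9.91 RPKM in the others, among them the 3 libraries with the most muscle reads. The 11 epithelial and mesothelial markers, which include the keratins of the tumour, summed to 387 to 626 RPKM. Of these markers, 10 of 12, 10 of 10, 10 of 10 and 10 of 11 entered the test, and limma called 0 of them in any contrast. At an unadjusted p under 0.05 stood at most 1, 1, 10 and 2 of them in a contrast. Their part in the results on the 40 genes was not tested.

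Genes with a profile like that of the 40 were sought among 15379 other genes with a mean of at least 1 RPKM. By Pearson r over the 10 libraries with the mean of the 40 genes, 298 reached 0.9, 96 reached 0.95 and 9 lay at -0.9 or lower. The 15 highest were A930016O22Rik (0.999), Trim54, Ube2c (0.997), Pgam2, Nexn, Mir7225, Eef1a2, Nrap, Myo18b, 1700095B10Rik, Rpl3l, Tmem38a, Sh3bgr, Hfe2 and Gm15469 (0.987). Some of them share exonic bases with another gene, so their reads may be shared too. Mir7225 lies wholly (100%) within exonic bases of Pde4dip on the same strand. On opposite strands, Gm15469 shares 39.8% of its bases with Trim54, and 1700095B10Rik 17.8% with Myo18b. A930016O22Rik overlaps Ckm, and Ube2c overlaps Tnnc2. The r values share the libraries and their muscle reads and carry no test.

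Ube2c, a ubiquitin-conjugating enzyme of mitosis, is not known as a muscle gene, and its exons overlap those of Tnnc2 on the opposite strand. On chromosome 2 (GRCm38), Ube2c spans 164769898 to 164778822 on the plus strand and Tnnc2 spans 164777161 to 164779967 on the minus strand. They share 592 exonic bases, 74.0% of those of Tnnc2 and 22.8% of those of Ube2c. Ube2c was at 929 and 265 RPKM with PBS, 6276, 5029 and 8.93 with CDK4/6i, 8.21 and 295 with the antibody, and 4959, 72.3 and 254 with the combination. Its 441044 reads in CDK4/6i replicate 1 and 60694 reads in PBS replicate 1 were 100.2 and 101.0 per 100 reads of Tnnc2. Tnnc2 had 440321 and 60072 reads there. In CDK4/6i replicate 3 and antibody replicate 1, where Tnnc2 had only 23 and 29 reads, Ube2c had 668 and 673. The sources used here do not say whether counting used strand. Where Tnnc2 was high, reads of these overlapping genes thus cannot be told apart. A high Ube2c value in a library rich in Tnnc2 is therefore not a measure of Ube2c expression.

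**Figure D5:**
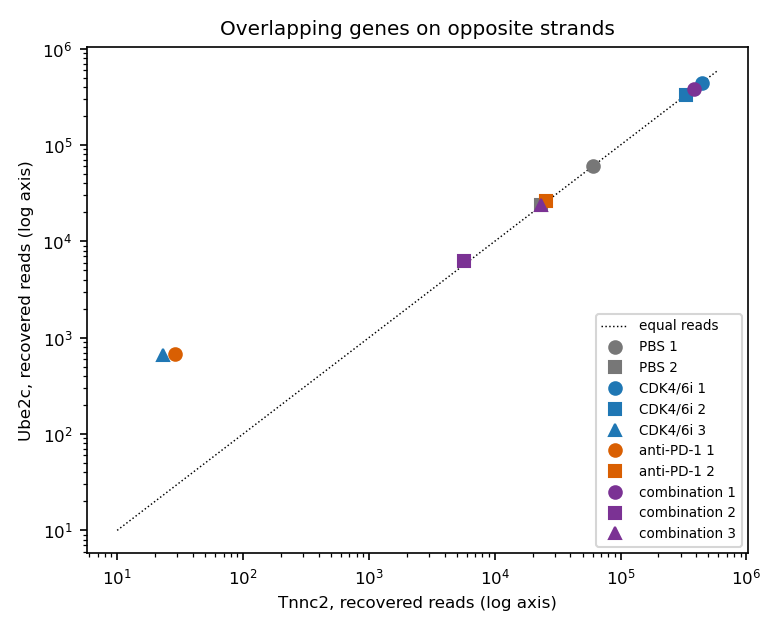
Recovered reads of Ube2c (y axis, log) against those of Tnnc2 (x axis, log) in the 10 libraries, with a dotted line at equal reads. The 8 libraries with most muscle reads lie on or just above the line, and CDK4/6i replicate 3 and antibody replicate 1 lie at 668 and 673 reads of Ube2c.

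In all, 15 of the 40 genes overlapped the exons of 16 other genes, each on the opposite strand, and 25 overlapped none. For 9 of the 16 partners r with the member was at least 0.9. The pairs with the largest shared stretches were Cacna1s and Gm37759 (1309 bases, r of 0.979), Ryr1 and Gm26604 (864 bases, 0.888), Atp2a1 and Rabep2 (763 bases, 0.876) and Tnnc2 and Ube2c. Rabep2, an endosomal trafficking gene, was at 28.9 and 17.1 RPKM with PBS, 105, 99.0 and 11.1 with CDK4/6i, 9.53 and 14.1 with the antibody, and 114, 15.8 and 19.1 with the combination. A930016O22Rik shares 451 bases with Ckm and had 20.4 to 31.0 reads per 100 reads of Ckm in the 8 libraries with most muscle reads. In CDK4/6i replicate 3 and antibody replicate 1, Rabep2 had 1697 and 1599 reads, or 5474 and 2907 per 100 reads of Atp2a1. Where the member is high, reads of these pairs too cannot be told apart.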

How the data were processed

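The deposited table gives RPKM, computed by the authors, for 32830 genes in 10 libraries, with each gene's coordinates and length. Per the labels' protocols, tumour RNA was extracted with TRIzol, mRNA libraries that keep strand were sequenced from both ends, and 2 library kits are named. Per the submitters' processing notes the build was GRCm38 (mm10). Aligner, counter and strand setting were not given in the sources used here. After scaling by the value of 1 read in its library, every RPKM value times gene length was a whole number of reads within a relative tolerance of 1e-06, and whole reads and totals (25132208 to 36260856) were recovered from it. Each column was assigned to the sample whose title has its group word and number, and 0 columns of sample values were left unused. The 8 replicate pairs all differed by more than sampling noise, with 23.9 to 532 chi-square units per gene.

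Tests used limma 3.58.1 (R 4.3.3, trend and robust moderation) on log2(RPKM + 0.5), for the 19368 genes that reached 0.5 RPKM in 2 samples or more. One fit of 4 group means to all 10 samples gave 8 contrasts, with Benjamini-Hochberg adjustment at 0.05 over all genes. The fitting code was tested on simulated data. The 40 genes, the 9 other lists, the fast and slow pairs and the naming rule were chosen with earlier results of these data known. The rule named all 40 genes by role, up to 4 genes of each list by mean RPKM, and the 15 most alike genes. Myh8, Myh6, Nppa, Ryr2, Myod1 and Myog were named after their values were seen, as were Rabep2 and the other exon overlap partners. Shares carry exact 95% Clopper-Pearson intervals (scipy 1.17.1). Exon overlaps were computed from the exon coordinates deposited with the RPKM values, and promoters came from RefSeq on GRCm38.p6. GENCODE M21 transcript sequences served only to check the promoter starts. Alternatives were other pseudocounts and filters, median-ratio scaling, voom, ordinary moderation, only the groups compared, a replicate block, each sample left out, and the 3 libraries richest in muscle transcripts left out. Figures were drawn with matplotlib 3.10.9.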

Additional observations from a re-analysis of the deposited data

How the results depend on the processing

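Of 474 alternative values, 462 counted as unchanged. Counts had to stay equal or near, and single genes had to keep their direction and side of the threshold. A median had only to move by less than the within-group spread of the mean level, 3.09 log2 units. Medians could thus change sign and still count, so the 462 do not show that directions were stable. The number of the 40 genes called stayed at 0 under every alternative and contrast with 1 exception: for the antibody against PBS it was 1 (Myl2, log2 fold change -3.89) with only the groups compared in the fit. Leaving out each sample gave a lowest and highest count of 0 and 0, where an arm left with 1 library was assumed to vary like the other groups. Medians of the 40 genes without the 3 libraries richest in muscle transcripts were -4.38 for CDK4/6i against PBS, 3.03 for the combination against CDK4/6i, -1.71 for the averaged inhibitor effect, 5.96 for the interaction and 0.44 for the averaged antibody effect, and the cause was not tested beyond the removal itself. The 3 libraries were picked by their muscle reads, and CDK4/6i replicate 3 then stood alone in its group. These medians are therefore no test of a direction. Single genes that changed sign were Ampd1 for CDK4/6i against PBS (-0.36 with voom, -1.37 without those 3 libraries), Jph1 for the combination against PBS (-0.51 without combination replicate 1 and without the 3 libraries, and -0.51 to 1.34 over the samples left out), Mb for the combination against CDK4/6i (-0.49 without CDK4/6i replicate 3, and -0.49 to 3.65 over the samples left out) and Myl2 for the averaged inhibitor effect (-0.35 without the 3 libraries). Whether the replicate numbers pair the samples was not settled. Over 13 pairs of the same number, r of the deviations ran from -0.45 to 0.62, and 6 exceeded 0.1. In a group of 2 libraries the deviations mirror each other, so these r values cannot exclude a pairing. With the replicate number as a block, 0 of the 40 genes were called in each contrast, and the medians were 1.55, -2.35, 1.56, 4.04, -0.23, 2.82, -1.35 and 2.26 in the order of the contrasts in the report. The fast gene held over 50% in 69 of 88 values by reads without length scaling and in 68 of 79 with at least 100 reads per pair.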

Other observations

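Genes that build and innervate muscle were low beside the contractile genes. Myf6, the myogenic factor of mature fibres, was at 15.5 and 0.878 RPKM with PBS, 49.3, 31.7 and 0 with CDK4/6i, 0 and 1.87 with the antibody, and 37.3, 0.381 and 1.15 with the combination. It was thus highest in the 3 libraries with the most muscle reads and in PBS replicate 1. Myod1 and Myog, the factors of muscle formation, stayed at or under 0.994 and 1.98 RPKM in every library, and the satellite cell gene Pax7 at or under 0.556 RPKM. The more widely expressed Mef2d was at 12.2 and 11.8 RPKM with PBS, 12.1, 11.8 and 16.0 with CDK4/6i, 9.40 and 11.5 with the antibody, and 15.6, 12.4 and 11.7 with the combination, with no such order. The 12 neuromuscular junction genes summed to 7.93 to 32.7 RPKM, with Chrnb1, the muscle acetylcholine receptor beta subunit, at 6.33 to 15.9 RPKM. Of the 13 regulatory and satellite cell genes 10 entered the test, and of the 12 junction genes 9. In limma 0 of them passed in any contrast, and at most 1 of each list had an unadjusted p under 0.05.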
